A study of Mus musculus with 25 samples.

Results

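The response of wild-type (WT) mouse liver to diethylnitrosamine (DEN) was read from 8 of the 25 arrays of the series, 5 from DEN-treated and 3 from untreated WT mice. The arrays were chosen by title, as those whose genotype is WT with the suffix TX (DEN) or NT (no treatment). The series asked how liver responds to this carcinogen with and without the tumour suppressors Rb and p53, which a Cre recombinase driven by the albumin promoter, active in hepatocytes, deletes where those genes carry loxP sites. The WT animals are labelled WT at both p53 and Rb and were of strain FVB;129. The labels do not say whether they carried Cre or loxP alleles. DEN was given once, intraperitoneally, at 20 mg/kg in saline at 14 days of age, and the series text puts the collection of liver at 24 h. For the untreated animals the labels give no treatment, whereas the series text names saline. The genotype used for contrast is DKO (deletion of both Rb and p53 in hepatocytes, same strain, age and dose), with 5 DEN and 3 untreated arrays.

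DEN is a nitrosamine that hepatocytes around the central vein activate with cytochrome P450 enzymes, Cyp2e1 above all, to species that alkylate DNA. DNA damage stabilises the transcription factor p53, which switches on genes of cell cycle arrest, death and repair. Reactive metabolites release the transcription factor Nrf2, which switches on genes that conjugate and reduce them, and injury signals such as interleukin 6 make hepatocytes secrete acute phase proteins. DEN given to juvenile mice is a standard means of inducing liver tumours.

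All values are log2 RMA signals, and all differences are DEN minus untreated on that scale, so that a difference of 1 is a 2-fold change. DEN arrays 1 to 3 and untreated arrays 1 and 2 belong to array set 1. DEN arrays 4 and 5 and untreated array 3 belong to array set 2, whose titles start with R and which held 1 more array, of another genotype. Set 2 stood apart on the first principal component (25.8% of the variance), at 48.0 to 48.7 for its 3 WT arrays, against -16.0 to -2.27 for the 5 WT arrays of set 1. The set was therefore a term in the main fits, and fits without it are given as alternatives. As a check of the labelled tissue, the 14 hepatocyte markers averaged 11.4 to 11.5 on the DEN arrays and 11.4 to 11.7 on the untreated arrays, led by Alb (albumin) at 12.5 to 12.9, while 7 exocrine pancreas markers averaged 4.13 to 4.46. The sexes are not in the labels. Xist, the RNA of the inactive X chromosome, was at 3.49, 3.52, 3.38, 3.92 and 3.84 on the DEN arrays, against 9.82, 4.15 and 10.55 on the untreated arrays. The Y-linked gene Eif2s3y was at 7.37, 7.22, 6.74, 6.81 and 6.49 on the DEN arrays, against 2.41, 7.02 and 2.61 on the untreated arrays. Untreated arrays 1 and 3 thus have the pattern of female tissue and the other 6 that of male tissue, so part of any difference between the groups cannot be told apart from sex. Within set 2 untreated array 3 is the only untreated array, so no difference there can be told apart from sex. Counts without untreated arrays 1 and 3, where given, rest on untreated array 2 alone.

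Of 15951 genes tested, 636 were called at an adjusted p under 0.05 by limma (3.99%), 331 higher (2.08%) and 305 lower (1.91%), and 2710 had an unadjusted p under 0.05. The median of all genes was 0.015. The difference had the same sign within set 1 for all 636 and within set 2 for 618. These genes were chosen by a fit of the same arrays, so equal signs were largely fixed by that choice. The DEN and untreated values did not overlap for 161 of the genes called higher and 206 of those called lower, where 508 of all genes had every DEN array above every untreated one (3.18%) and 553 every DEN array below (3.47%). Leaving out each of the 8 WT arrays in turn kept the call of 95 of the 331 and of 62 of the 305. The count was lowest without untreated array 1, at 221, and was 266 without untreated array 2. Without untreated arrays 1 and 3 there were 86 genes called higher (0.539%) and 122 lower (0.765%), 72 and 67 of them among the main calls. All 636 kept their direction, in a fit that shares its remaining arrays with the main one. Some genes described below kept their call without any 1 array but lost it without both of these arrays. They include Saa1, Mir15a, Mdm2, Tnfrsf10b, Aox1, Txnrd1, Ghr, Plin2, Reln and Slc25a21. Whether arrays of a group are different mice is not stated, and the p-values may then reflect technical spread only. In bulk tissue fewer cells of a type and less RNA per cell cannot be told apart.

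Ephx1, Ces2e, Ccng1, Aaas, 1700007K13Rik and Gstp1 had the lowest p among the genes that rose. Ephx1, the microsomal epoxide hydrolase that opens reactive epoxides, was at 9.59, 10.07, 9.64, 8.96 and 9.69 on the DEN arrays, against 7.36, 7.66 and 6.90 on the untreated arrays. Every DEN value lay above every untreated one, and the gene rose by 2.31 (SE 0.16, adjusted p = 1.36e-09). Ces2e, a carboxylesterase gene of a family with close paralogs, was at 9.19, 9.68, 9.32, 8.63 and 8.92 with DEN, against 7.32, 7.73 and 7.08 untreated. It also rose without overlap, by 1.80 (SE 0.14, adjusted p = 1.62e-08). Aaas encodes aladin, a protein of the nuclear pore. It was at 7.49, 7.47, 7.25, 7.52 and 7.63 with DEN, against 5.20, 5.57 and 6.11 untreated, and rose by 1.83 (SE 0.16, adjusted p = 5.64e-08). The uncharacterised gene 1700007K13Rik was at 7.91, 7.69, 6.76, 7.52 and 6.52 with DEN, against 4.45, 4.06 and 4.28 untreated, a rise of 3.05 (SE 0.29, adjusted p = 2.85e-07). Each of these genes was called without any 1 of the 8 arrays and without untreated arrays 1 and 3.

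**Figure D1:**
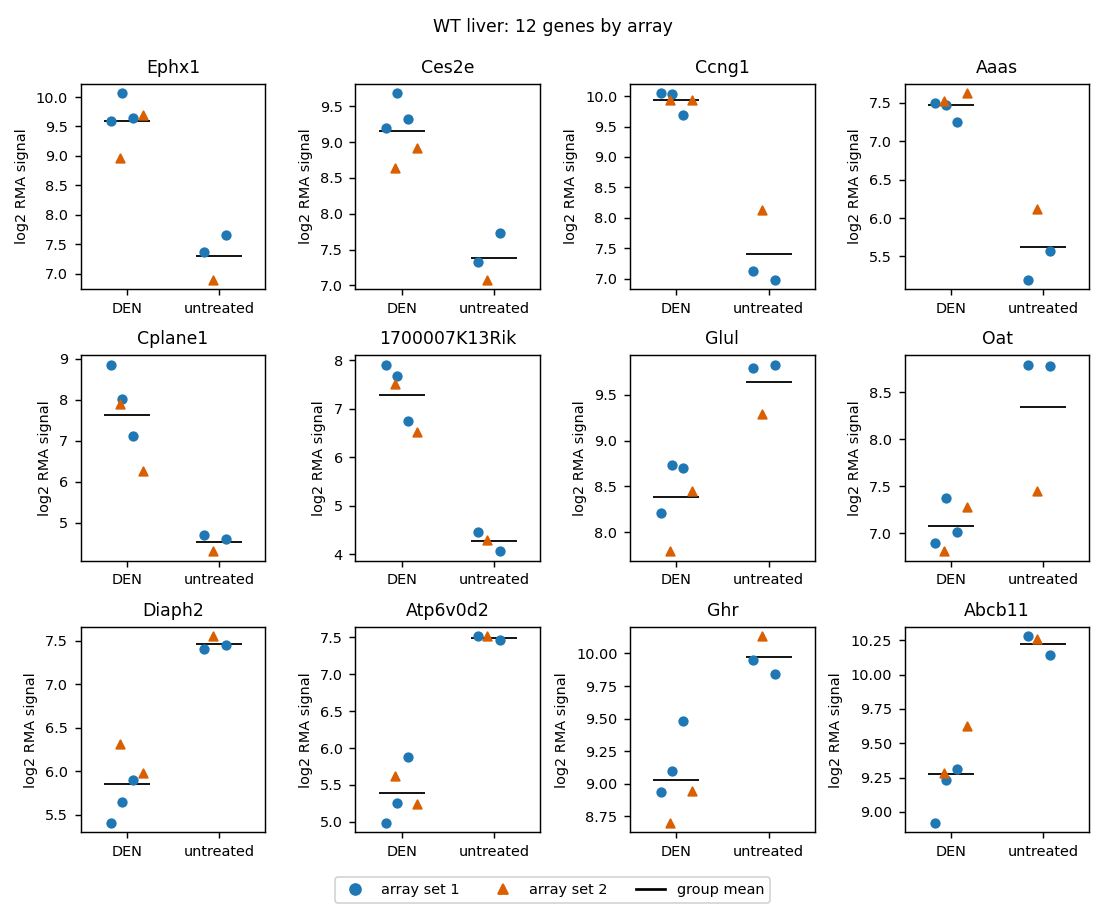
Log2 RMA signal of 12 genes on each WT array, DEN on the left and untreated on the right of each panel, with circles for array set 1, triangles for array set 2 and a line at the group mean. In all 12 panels no DEN point overlaps the untreated points; 6 genes are higher with DEN (Ephx1 by 2.31) and 6 lower (Glul at -1.23).

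Other genes with large rises in both sets came from unrelated functions. Cplane1, a gene of the primary cilium, was at 8.85, 8.03, 7.11, 7.91 and 6.27 with DEN, against 4.69, 4.61 and 4.30 untreated. This was a rise of 3.16 (SE 0.36, adjusted p = 6.28e-06), at 2.79 within set 2 and 3.34 within set 1. Ddias, named for suppressing apoptosis after DNA damage, was at 7.99, 7.97, 7.62, 6.56 and 6.42 with DEN, against 4.43, 4.92 and 4.99 untreated, and rose by 2.56 (SE 0.31, adjusted p = 1.09e-05). Cox6b2, the testis form of a cytochrome c oxidase subunit, was at 7.27, 8.23, 7.85, 7.43 and 7.81 with DEN, against 5.13, 5.33 and 6.18 untreated, and rose by 2.17 (SE 0.26, adjusted p = 1.09e-05). Mybl1, the transcription factor A-Myb, rose by 2.08 (SE 0.32), and Gria3, a glutamate receptor subunit gene, by 1.90 (SE 0.25). Prrg4, which encodes a membrane protein with a Gla domain, rose by 2.21 (SE 0.44, adjusted p = 0.00363). All 6 of these genes were called without each of the 8 arrays in turn, and in all 6 the groups did not overlap. The rise of Prrg4 was 0.64 within set 2 and 3.11 within set 1, and that of Ddias 1.50 and 3.19, differences between the sets that were themselves called.

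Targets of p53 were the list with the most frequent calls. Of 18 measured targets of arrest and damage signalling, 9 were called higher and 0 lower, at a median of 0.88, where all genes tested had a median of 0.015. The median was 0.66 within set 2 and 0.80 within set 1. The mean level of the list was 6.87, 6.79, 6.40, 6.40 and 6.15 on the DEN arrays, against 5.65, 5.75 and 5.64 on the untreated arrays. Ccng1, the cyclin G1 gene, was at 10.05, 10.04, 9.69, 9.94 and 9.94 with DEN, against 7.13, 6.98 and 8.12 untreated, a rise of 2.49 (SE 0.21, adjusted p = 3.70e-08). The 5 DEN arrays stood close together, and untreated array 3 lay above the other untreated arrays. Mdm2, the ubiquitin ligase that degrades p53, was at 8.24, 8.16, 7.35, 7.99 and 7.59 with DEN, against 6.24, 6.43 and 6.59 untreated. It rose by 1.44 (SE 0.23, adjusted p = 0.000587), at 1.20 within set 2 and 1.59 within set 1. Phlda3, an inhibitor of the kinase Akt, was at 6.91, 6.73, 6.10, 5.89 and 5.75 with DEN, against 4.93, 5.01 and 4.71 untreated, and rose by 1.43 (SE 0.18, adjusted p = 2.44e-05). Plk2, a polo-like kinase of the damage response, rose by 1.74 (SE 0.29), Ckap2, a microtubule-binding protein, by 2.02 (SE 0.23), and Psrc1, a spindle protein, by 1.42 (SE 0.20). Of these, Ccng1, Ckap2 and Psrc1 rose less in set 2 than in set 1 by the test of that difference, which called 1280 of all genes (8.02%), 622 below 0 (3.9%) and 658 above (4.13%), or 753 below and 540 above after centring of each array on its median. The other 3 calls were Rps27l at 1.26, Eda2r at 1.20 and Gtse1 at 0.52. That of Rps27l was lost without untreated array 1 (0.0617), that of Eda2r without untreated array 1 or 2 (up to 0.0692), and that of Gtse1 without any untreated array or DEN array 1 or 4 (up to 0.158). Cdkn1a and Gdf15 were not analysed here. Without untreated arrays 1 and 3, 6 of the 18 were called higher and 1, the polo-like kinase Plk3, lower at -1.44.

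Of 13 p53 targets of cell death, 5 were called higher and 0 lower, at a median of 0.50, or 0.23 within set 2 and 0.65 within set 1. Siva1, a death adaptor, was at 7.66, 7.93, 7.49, 6.82 and 6.83 with DEN, against 6.58, 6.73 and 5.24 untreated, and rose by 1.25 (SE 0.18, adjusted p = 0.000154). Aen, a nuclease of apoptosis, was at 5.74, 5.60, 5.56, 5.61 and 5.38 with DEN, against 4.79, 4.48 and 4.63 untreated, and rose by 0.95 (SE 0.17, adjusted p = 0.00127). In both genes every DEN value exceeded every untreated one. Tnfrsf10b, the TRAIL receptor gene, rose by 1.13 (SE 0.21). Fas, the death receptor gene, was at 8.12, 8.26, 7.95, 7.80 and 6.89 with DEN, against 6.96, 6.81 and 7.11 untreated, and rose by 0.87 (SE 0.18, adjusted p = 0.00602). DEN array 5 lay within its untreated range, and the call was lost without untreated array 1 or 2 (adjusted p up to 0.0777). That of Apaf1, the scaffold of the apoptosome, at 0.55 (SE 0.15), was lost without untreated array 1 or 2 or DEN array 1, 2 or 4 (up to 0.195). Of 9 p53 targets of DNA repair only Polk, a polymerase that copies past damaged bases, was called. It was at 6.96, 7.29, 6.76, 6.42 and 6.60 with DEN, against 5.57, 5.35 and 5.67 untreated, and rose by 1.29 (SE 0.15, adjusted p = 9.88e-06). Of the 13, 3 were called higher without untreated arrays 1 and 3, and of the 9, 2. Gadd45a was at 0.64 (SE 0.19, adjusted p = 0.0574) and Ercc5 at 0.52 (SE 0.16, adjusted p = 0.0624).

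The enzymes that repair alkylated bases and broken DNA had no calls. Of 16 genes of alkylation and base excision repair 0 were called, at a median of 0.09. Mgmt, which removes alkyl groups from guanine, was at 6.03, 6.51, 6.57, 5.43 and 5.78 with DEN, against 6.20, 5.90 and 4.97 untreated, a difference of 0.43 (SE 0.17, adjusted p = 0.156), and the groups overlapped. Mpg, the glycosylase for alkylated adenine, was at 0.22 (SE 0.12, adjusted p = 0.372). Of 16 genes of homologous recombination and the Fanconi anemia pathway 0 were called, at a median of 0.07, or -0.18 within set 2 and 0.20 within set 1.

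Targets of Nrf2 other than glutathione transferases had 7 of 20 called higher and 0 lower, at a median of 0.40, or 0.47 within set 2 and 0.31 within set 1. The mean of the list was 6.98, 6.96, 6.85, 6.91 and 6.93 on the DEN arrays, against 6.58, 6.52 and 6.31 on the untreated arrays, with no overlap. After Ephx1, given above, came Ugdh, the enzyme that makes the sugar donor for glucuronidation. It was at 8.73, 8.39, 8.01, 8.13 and 7.50 with DEN, against 7.13, 6.82 and 6.49 untreated, and rose by 1.37 (SE 0.18, adjusted p = 3.53e-05). Nqo1, the quinone reductase and a classical marker of Nrf2 activity, was at 4.97, 5.15, 4.87, 4.93 and 5.24 with DEN, against 4.07, 3.89 and 4.04 untreated. Its rise of 1.03 (SE 0.15, adjusted p = 0.000215) was nearly equal in the sets, at 1.04 within set 2 and 1.02 within set 1. Txnrd1, a thioredoxin reductase, rose by 0.64 (SE 0.12, adjusted p = 0.00291), and Aox1, an aldehyde oxidase, by 0.85 (SE 0.16, adjusted p = 0.00246). Srxn1, which repairs oxidised peroxiredoxins, rose by 0.96 (SE 0.23, adjusted p = 0.0146), a call lost without untreated array 1 or 2 (up to 0.0692). The smallest called rise was that of Gsr, glutathione reductase, at 0.53, lost without any untreated array or DEN array 1, 2 or 4 (up to 0.355). Without untreated arrays 1 and 3, 3 of the 20 were called higher.

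Glutathione transferases, which attach glutathione to reactive compounds, had 4 of 17 called higher and 0 lower, at a median of 0.33, or 0.45 within set 2 and 0.12 within set 1. Gstp1 was at 10.89, 11.40, 11.17, 10.24 and 10.56 with DEN, against 9.71, 10.05 and 7.80 untreated, and rose by 1.75 (SE 0.19, adjusted p = 4.75e-06). Untreated array 3 was the lowest of the 8. The rise was 2.60 within set 2 and 1.28 within set 1, and this difference was called (adjusted p = 0.0106). The mu-class genes, whose close paralogs the probe sets may not fully separate, were called for Gstm3 at 0.70 (SE 0.14), Gstm4 at 0.96 (SE 0.20) and Gstm6 at 1.05 (SE 0.29). The calls of Gstm3 and Gstm4 ended without untreated array 3 (adjusted p = 0.0639 and 0.129), and that of Gstm6 without any of untreated arrays 1 to 3 or DEN arrays 2, 4 and 5 (up to 0.362). In 7 of the 17 genes the response was larger in set 2 by the test of the difference, and in 0 smaller. All of them are measured in set 2 against untreated array 3. Only 1 of the 17 was called higher without untreated arrays 1 and 3.

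The promoters of these lists were searched for the core of the antioxidant response element that Nrf2 binds, TGACNNNGC, on both strands, in 250 bases before and 50 after the RefSeq start. Counts are of genes with at least 1 promoter sequence, and a gene counted if any of its promoters matched. The core was found in 9 of 16 genes of the Nrf2 list (56.2%), in 3 of 6 of its members called higher, and in 16.1% of the 12551 tested genes. It was found in 19.2% of the genes called higher and 15.8% of those called lower. The core of the STAT motif, TTCNNNGAA, stood in 5 of 18 genes of the acute phase list (27.8%), in 1 of 7 of its members called higher (14.3%), and in 8.4% of all. It was found in 8.0% of the genes called higher and 10.0% of those called lower. The p53 half-site pair was found in 6 of 12551 genes, and in 0 of the 16, 10 and 6 genes of the p53 lists of arrest, death and repair. A match this rare cannot tell lists of this size from other genes. The promoters of 3 called members with a match are shown because their genes are among the rises of these lists. Capitals mark the motif, in the sequences of RefSeq build GRCm38.p6 read along the gene's strand.
Ugdh, chr5:65435793-65436092, minus strand, TGACNNNGC once on each strand: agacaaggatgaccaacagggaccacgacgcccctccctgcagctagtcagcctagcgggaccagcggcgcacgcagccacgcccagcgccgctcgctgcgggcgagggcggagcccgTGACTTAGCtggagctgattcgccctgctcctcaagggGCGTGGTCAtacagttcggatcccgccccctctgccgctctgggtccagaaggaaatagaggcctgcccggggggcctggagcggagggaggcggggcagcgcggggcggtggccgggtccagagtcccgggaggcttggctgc
Hamp, chr7:30943980-30944279, minus strand, TTCNNNGAA: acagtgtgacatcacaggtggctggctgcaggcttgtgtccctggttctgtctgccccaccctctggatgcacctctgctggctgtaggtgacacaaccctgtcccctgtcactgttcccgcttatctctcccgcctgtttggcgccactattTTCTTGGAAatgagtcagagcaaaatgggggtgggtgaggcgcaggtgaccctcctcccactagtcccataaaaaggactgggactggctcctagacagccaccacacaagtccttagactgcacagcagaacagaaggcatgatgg
Txnrd1, chr10:82858956-82859255, plus strand, TGACNNNGC on the opposite strand: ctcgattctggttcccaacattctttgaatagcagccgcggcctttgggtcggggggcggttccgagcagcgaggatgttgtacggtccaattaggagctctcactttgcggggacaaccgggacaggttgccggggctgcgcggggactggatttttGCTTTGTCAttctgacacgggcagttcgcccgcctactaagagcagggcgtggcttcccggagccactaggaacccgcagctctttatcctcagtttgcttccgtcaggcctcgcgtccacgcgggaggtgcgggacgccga

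Cytochrome P450 genes were called in the lower direction only. Of 18 measured, 3 were called lower (16.7%, where 1.91% of all genes were) and 0 higher. There were 6 positive differences, and the median was -0.27, or -0.20 within set 2 and -0.23 within set 1. The count called lower was 1 without untreated arrays 1 and 3. Cyp2e1, the main enzyme of DEN activation, was at 11.45, 11.92, 11.90, 10.56 and 11.51 with DEN, against 11.87, 11.99 and 11.84 untreated, a difference of -0.41 (SE 0.17, adjusted p = 0.197) with overlapping groups. Cyp2c37 was at 9.13, 9.94, 10.46, 10.16 and 10.18 with DEN, against 10.66, 10.57 and 10.87 untreated, and fell by 0.75 (SE 0.19, adjusted p = 0.0213). Cyp1a2, which oxidises aromatic amines, was at 7.88, 8.38, 7.96, 6.31 and 9.57 with DEN, against 9.66, 9.68 and 9.05 untreated, and was called lower at -1.41 (SE 0.40, adjusted p = 0.0465). The 2 DEN arrays of set 2 held both its lowest and its highest DEN value. All 3 calls depended on single arrays: that of Cyp2c37 was lost without untreated array 1 or 2 or DEN array 1 (up to 0.120), that of Cyp4a14, a fatty acid hydroxylase, without any untreated array or DEN array 4 or 5 (up to 0.119), and that of Cyp1a2 without any array other than DEN array 5 (up to 0.161).

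Genes expressed around the central vein, the zone where DEN is activated, fell in several cases. Of 17 pericentral genes 4 were called lower and 0 higher, and 16 of the 17 had a negative difference. The median was -0.35, or -0.40 within set 2 and -0.33 within set 1. Glul, the glutamine synthetase of the hepatocytes next to the central vein, was at 8.22, 8.74, 8.71, 7.79 and 8.45 with DEN, against 9.80, 9.83 and 9.30 untreated. It fell by 1.23 (SE 0.17, adjusted p = 6.18e-05), at -1.18 within set 2 and -1.26 within set 1. Oat, the ornithine aminotransferase of the same cells, was at 6.90, 7.38, 7.01, 6.81 and 7.29 with DEN, against 8.80, 8.79 and 7.45 untreated, and fell by 1.23 (SE 0.20, adjusted p = 0.000508). Slc1a2, their glutamate transporter, was at 4.05, 4.64, 5.17, 4.29 and 5.53 with DEN, against 7.59, 7.08 and 5.71 untreated, and fell by 2.03 (SE 0.33, adjusted p = 0.000508). Untreated array 3 was the lowest untreated array in all 3, and for Oat and Slc1a2 it was close to the DEN values, with -0.40 and -0.80 within set 2 and -1.70 and -2.71 within set 1. These differences between the sets were called for Oat and Slc1a2 and not for Glul. The 3 genes were called without each of the 8 arrays in turn, and 4 of the 17 were called lower without untreated arrays 1 and 3. Of 12 periportal genes 0 were called, at a median of -0.01. Cps1, the entry enzyme of the urea cycle, was at -0.37 (SE 0.12, adjusted p = 0.0690).

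Acute phase genes had 8 of 22 called higher and 0 lower, although the median of the list was only 0.05, with 10 negative differences. Saa2, a serum amyloid gene, was at 11.09, 10.13, 10.60, 6.75 and 4.19 with DEN, against 4.92, 5.71 and 2.99 untreated, and rose by 4.31 (SE 0.57, adjusted p = 4.59e-05). The 3 DEN arrays of set 1 were far above all others, and DEN array 5 lay below 2 untreated arrays of the other set. Saa1, its close paralog, had the same order, at 9.92, 8.80, 9.53, 6.62 and 3.03 with DEN, against 4.08, 5.92 and 2.94 untreated, and rose by 3.52 (SE 0.64, adjusted p = 0.00173). The orosomucoid genes Orm2 and Orm1 were called at 2.23 (SE 0.47) and 1.90 (SE 0.49). Orm1 was at 9.43, 7.92, 9.67, 5.10 and 5.65 with DEN, against 6.30, 5.63 and 5.58 untreated, so that its difference was -0.21 within set 2 and 3.04 within set 1. The response in set 2 was below that in set 1 for 5 of the 22 genes by the test of the difference. The calls of Orm2 and Orm1 ended without untreated array 1 or 2, and that of Orm1 also without DEN array 1 or 3 (up to 0.0746 and 0.239). In the list, 4 genes were called higher and 1 lower without untreated arrays 1 and 3. Saa3 was called at 1.34 (SE 0.39, adjusted p = 0.0465), a call that 6 arrays ended, namely untreated arrays 1 to 3 and DEN arrays 1, 3 and 4 (up to 0.255). Serpina3n, a protease inhibitor, and Hpx, the heme binder hemopexin, were called at 0.51 and 0.40, each lost without 5 arrays, untreated arrays 1 and 3 and DEN arrays 1 and 4 among them (up to 0.373).

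Hamp encodes hepcidin, the hormone that blocks iron export and is induced with the acute phase. It was at 7.30, 8.63, 10.21, 11.49 and 6.88 with DEN, against 3.49, 3.78 and 7.19 untreated, and rose by 3.98 (SE 0.68, adjusted p = 0.000934), at 2.00 within set 2 and 5.08 within set 1. Untreated array 3 was above DEN array 5, and the DEN arrays spanned more than 4 units. Its neighbour and paralog Hamp2 was not called (adjusted p = 0.266). Among 18 genes of iron regulation the other call was Slc11a2, the iron importer, lower at -0.47 (SE 0.13, adjusted p = 0.0426), which untreated array 1 or 2 and DEN array 1, 3 or 5 each ended (up to 0.266). Tfrc, the transferrin receptor gene, was at -0.77 (SE 0.25, adjusted p = 0.0840).

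Of 15 inflammatory cytokine and signalling genes only Cxcl10, a chemokine induced by interferon, was called, at 0.94 (SE 0.26, adjusted p = 0.0367). It was at 4.61, 5.05, 4.75, 6.97 and 5.27 with DEN, against 4.19, 4.13 and 4.69 untreated, with DEN array 4 the highest, and the call ended without any untreated array or DEN array 2 (up to 0.150). DEN array 4 was also the highest of the 8 for Il1b, Cxcl1 and Ccl2, at 5.70, 8.59 and 6.12, genes that were not called. Of 17 interferon-stimulated genes 4 were called higher and 0 lower, at a median of 0.35, or 0.44 within set 2 and 0.29 within set 1. Ifit3 was at 5.11, 5.71, 7.35, 6.40 and 5.71 with DEN, against 4.71, 4.90 and 4.78 untreated, and was called at 1.27 (SE 0.33, adjusted p = 0.0286). Mx2, Bst2 and Ddx58 were at 0.95 (SE 0.25), 0.69 (SE 0.17) and 0.49 (SE 0.13). The groups did not overlap for these 4, but each call was lost without 3 to 5 single arrays, untreated arrays 2 and 3 among them every time (up to 0.172), and 0 of the 17 were called without untreated arrays 1 and 3. Tap1, the peptide transporter of MHC class I presentation, was the only gene called of 12 in that list, at 0.77 (SE 0.17, adjusted p = 0.00908), and was not called without untreated array 1 (0.114).

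Genes of cell division went in opposite directions in the sets. Of 25 genes of mitosis and cytokinesis, all 25 had a positive difference within set 1 and 2 within set 2. The median was -0.65 within set 2 and 0.91 within set 1, and the difference between the sets was called below 0 for 21 of the 25. The mean level of the list was 6.17, 6.20, 6.20, 4.93 and 4.93 on the DEN arrays, against 5.07, 5.48 and 5.52 on the untreated arrays, so the DEN arrays of set 1 were the highest of the 8 and those of set 2 the lowest. In the fit of all sets only Cdk1, the kinase that starts mitosis, was called, at 0.82 (SE 0.19, adjusted p = 0.0103). It was at 6.84, 6.74, 6.79, 4.74 and 5.04 with DEN, against 5.31, 5.79 and 4.79 untreated, and the call ended without untreated array 1 (0.154). In set 1 alone, where 5.0% of all genes were called higher, 22 of the 25 were called higher. Without untreated arrays 1 and 3, 0 were called, with the differences of Aurka and Tpx2, a mitotic kinase and its activator, at 0.65 and 0.58 (adjusted p = 0.307 and 0.460). Of 25 genes of S phase 2 were called higher and 0 lower, at a median of 0.25, or 0.05 within set 2 and 0.39 within set 1. Rrm2, a subunit of ribonucleotide reductase, rose by 0.93 (SE 0.19, adjusted p = 0.00400), and Pcna, the replication clamp, by 0.42 (SE 0.12, adjusted p = 0.0477). The call of Rrm2 ended without untreated array 1 (0.0803) and that of Pcna without untreated array 1 or 2 or any of DEN arrays 1 to 4 (up to 0.263). Cdk6, a kinase of the G1 phase, was the 1 called gene of 14 D cyclins, their kinases and inhibitors. It fell by 0.60 (SE 0.13, adjusted p = 0.00770), with -0.58 within set 2 and -0.61 within set 1, and was not called without untreated array 2 (0.0762). No S phase gene was called without untreated arrays 1 and 3. Rb1 was at 0.28 (SE 0.19, adjusted p = 0.501).

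**Figure D2:**
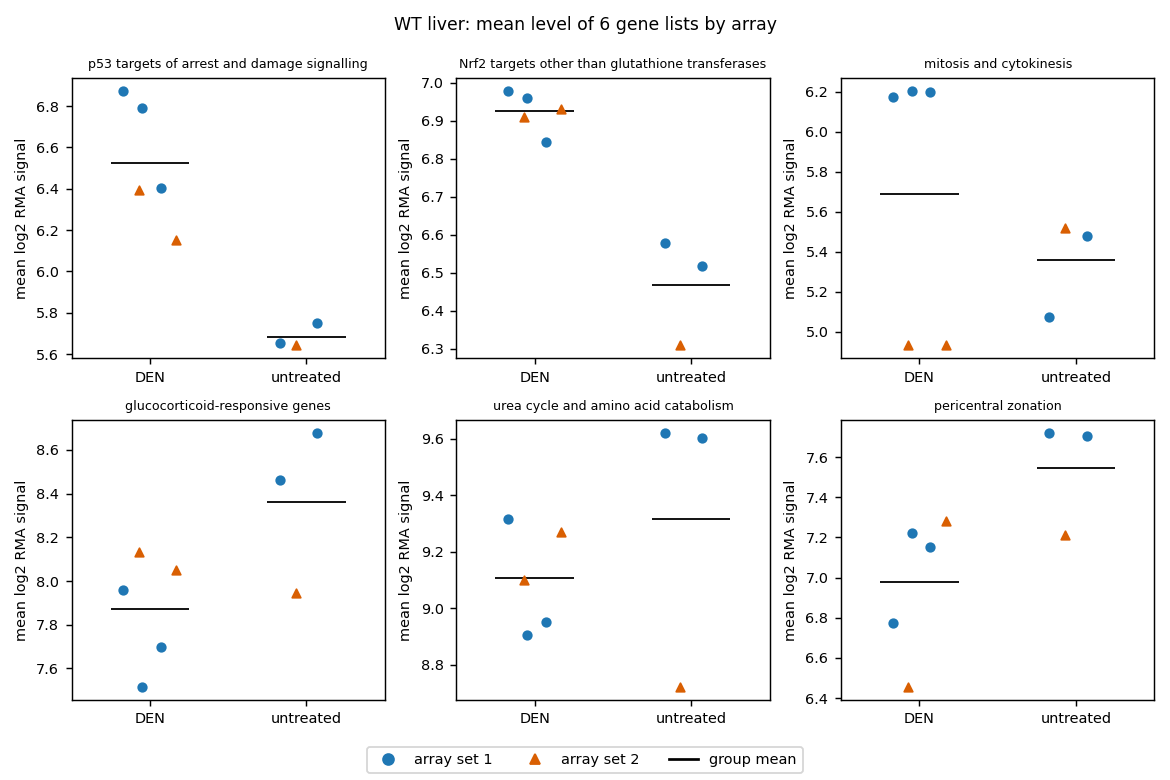
Mean log2 RMA signal of 6 gene lists on each WT array, DEN on the left and untreated on the right, with circles for array set 1, triangles for array set 2 and a line at the group mean. For the p53 and Nrf2 lists all DEN points lie above all untreated points; for mitosis the 3 DEN circles (6.17 to 6.20) lie above and the 2 DEN triangles (4.93) below all untreated points.

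Metabolic and hormone-responsive lists differed between the sets as well. Of 12 glucocorticoid-responsive genes 2 were called lower, at a median of -0.50, which was 0.39 within set 2 and -0.93 within set 1. Of 16 genes of the urea cycle and amino acid catabolism 1 was called higher and 1 lower, at a median of -0.26, which was 0.41 within set 2 and -0.51 within set 1. The difference between the sets was called above 0 for 5 of the 12 and 10 of the 16, and for 0 below. Prodh, which starts proline breakdown, was at 6.96, 6.07, 5.93, 5.86 and 7.01 with DEN, against 8.11, 7.92 and 6.44 untreated, and was called lower at -1.09 (SE 0.28, adjusted p = 0.0248). Within set 2 its difference was -0.01. Ftcd, an enzyme of histidine breakdown, was at 7.27, 7.31, 7.00, 8.23 and 8.17 with DEN, against 6.93, 7.24 and 6.30 untreated, and was called higher at 0.76 (SE 0.22, adjusted p = 0.0499), from 1.90 within set 2 and 0.11 within set 1. Hnf4a, a master transcription factor of hepatocytes, was at 7.68, 7.77, 7.57, 8.12 and 8.55 with DEN, against 8.79, 9.29 and 8.01 untreated. It was called lower at -0.76 (SE 0.20, adjusted p = 0.0309), with 0.33 within set 2 and -1.36 within set 1. Each of these 3 calls was lost without 5 or 6 of the 8 arrays, untreated array 1 and DEN array 2 among them every time (up to 0.539). Of 13 genes of gluconeogenesis and glycolysis and 18 of fatty acid synthesis 0 were called. Their medians were 0.17 and 0.34 within set 2, against -0.69 and -0.49 within set 1. When untreated arrays 1 and 3 were left out, 6 of the 12 glucocorticoid-responsive genes, 2 of the 16 and, of these last lists, 3 of the 13 and 2 of the 18 were called lower, and 0 higher.

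The receptor genes Ghr, Lepr, Lifr and Egfr were called lower. Of 15 genes of the growth hormone, insulin-like growth factor and leptin axis 5 were called lower and 0 higher, at a median of -0.49, or -0.04 within set 2 and -0.55 within set 1. Ghr, the growth hormone receptor gene, was at 8.94, 9.10, 9.49, 8.70 and 8.94 with DEN, against 9.95, 9.84 and 10.13 untreated, and fell by 0.95 (SE 0.16, adjusted p = 0.00110). The fall was -1.31 within set 2 and -0.72 within set 1. Lepr, the leptin receptor gene, was at 4.82, 5.64, 6.90, 7.07 and 5.53 with DEN, against 7.68, 7.81 and 7.46 untreated, and fell by 1.70 (SE 0.37, adjusted p = 0.00771). Lifr, the receptor of leukemia inhibitory factor, fell by 0.71 (SE 0.16, adjusted p = 0.00900) and Egfr, the epidermal growth factor receptor gene, by 0.65 (SE 0.17, adjusted p = 0.0306). The groups did not overlap for these 4 receptors. Socs2, an inhibitor of growth hormone signalling that the hormone itself induces, was at 6.48, 7.43, 7.60, 7.10 and 7.59 with DEN, against 7.33, 8.06 and 9.50 untreated, and was called lower at -1.09 (SE 0.32, adjusted p = 0.0478). Only the call of Ghr held without each array in turn. The others ended without untreated array 2, that of Lepr also without untreated array 1 (up to 0.0736), that of Egfr without untreated array 3 or DEN array 4 or 5 (up to 0.237), and that of Socs2 without untreated array 3 or DEN array 1, 4 or 5 (up to 0.460). The value of Lifr without untreated array 2 was 0.0815. None of the 15 was called without untreated arrays 1 and 3.

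Abcb11, Slc10a1 and Slco1b2, transporters of bile acids and organic anions, were called lower, and the enzymes that make bile acids had no calls. Of 20 genes of bile acid synthesis and transport 3 were called lower and 0 higher, at a median of -0.33, or -0.17 within set 2 and -0.43 within set 1. Abcb11, the bile salt export pump, was at 8.92, 9.24, 9.31, 9.29 and 9.62 with DEN, against 10.28, 10.14 and 10.26 untreated, and fell by 0.98 (SE 0.16, adjusted p = 0.000635), a call that each left-out array kept. Slc10a1, the sodium-dependent importer, fell by 0.59 (SE 0.13, adjusted p = 0.00807), and was not called without untreated array 1 (0.0617). Slco1b2, an importer of organic anions, fell by 0.88 (SE 0.22, adjusted p = 0.0228), a call lost without untreated array 1 or 3 (up to 0.168). Of the 20, 2 were called lower without untreated arrays 1 and 3. Genes of cholesterol synthesis (16), the circadian clock (16), heat shock (10) and complement and coagulation (28) had 0 calls each in the fit of all sets, with medians of -0.02, -0.04, 0.07 and -0.17. Of 20 genes of the ATF4 and unfolded protein response only Herpud1, a protein of degradation from the endoplasmic reticulum, was called. It was lower at -0.66 (SE 0.17, adjusted p = 0.0215), and not called without untreated array 1 or 2 or DEN array 1 (up to 0.246). Plin2, which coats lipid droplets, was the 1 called of 18 genes of PPARalpha, fatty acid oxidation and ketogenesis, at 0.68 (SE 0.13, adjusted p = 0.00283).

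**Figure D3:**
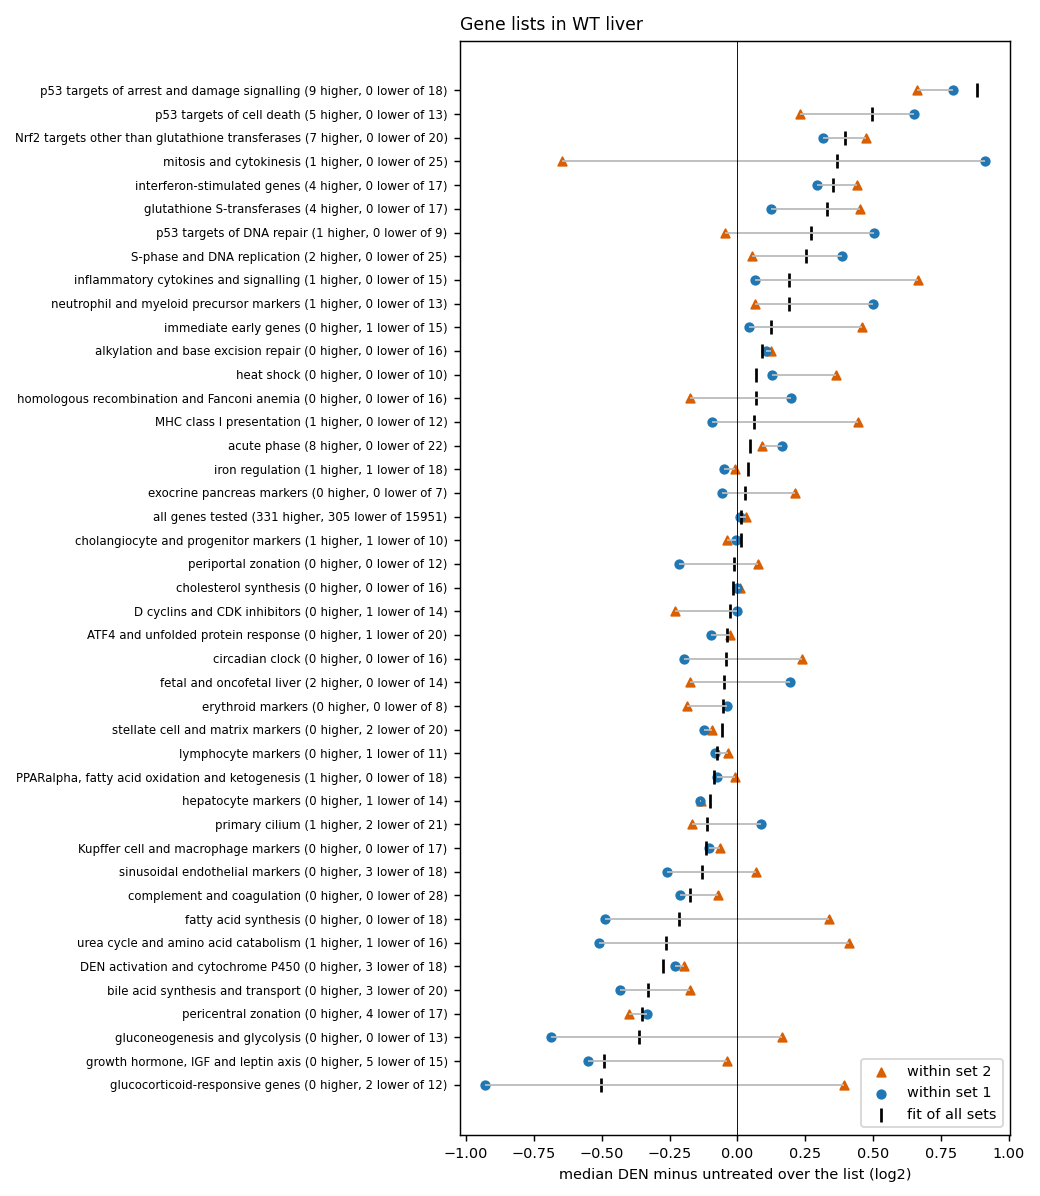
Median difference, DEN minus untreated (log2), of each gene list in WT liver within set 2 (triangles), within set 1 (circles) and in the fit of all sets (black ticks), with the counts of genes called higher and lower of those tested. The p53 lists of arrest and of cell death and the Nrf2 list lie to the right of all genes tested in both sets, the pericentral list to the left in both, and the mitosis list on opposite sides, at -0.65 within set 2 and 0.91 within set 1.

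Genes called lower tended to be long. The median span on the genome, from RefSeq build GRCm38, was 12.8 kb for the 331 genes called higher, 99.7 kb for the 305 called lower and 19.8 kb for the 15898 tested genes with a span. At least 100 kb long were 9 of the genes called higher (2.7%), 152 of those called lower (49.8%) and 11.8% of all. Of 10 bins of equal size by span, the longest (112.3 kb and above) had 8 of 1590 genes called higher (0.5%) and 140 lower (8.81%), and the shortest had 40 called higher (2.52%) and 10 lower (0.63%). The median difference in the longest bin was -0.10 within set 2 and -0.14 within set 1, and -0.17 in the DEN response of DKO. On each DEN array, measured from the untreated arrays of its own set, the median of the longest bin was at -0.20, -0.13, -0.10, -0.10 and -0.09, and that of the shortest bin at 0.03 to 0.07. The shift was thus small for the typical long gene and of 1 direction on all 5 arrays. Without untreated arrays 1 and 3 the genes called higher had a median span of 12.4 kb and those called lower 68.3 kb. For the genes called lower the median was 191.5 kb without the set term, 56.0 kb with array weights, 49.8 kb without set 2 and 46.0 kb in set 1 alone, where 32.1% were at least 100 kb long.

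**Figure D4:**
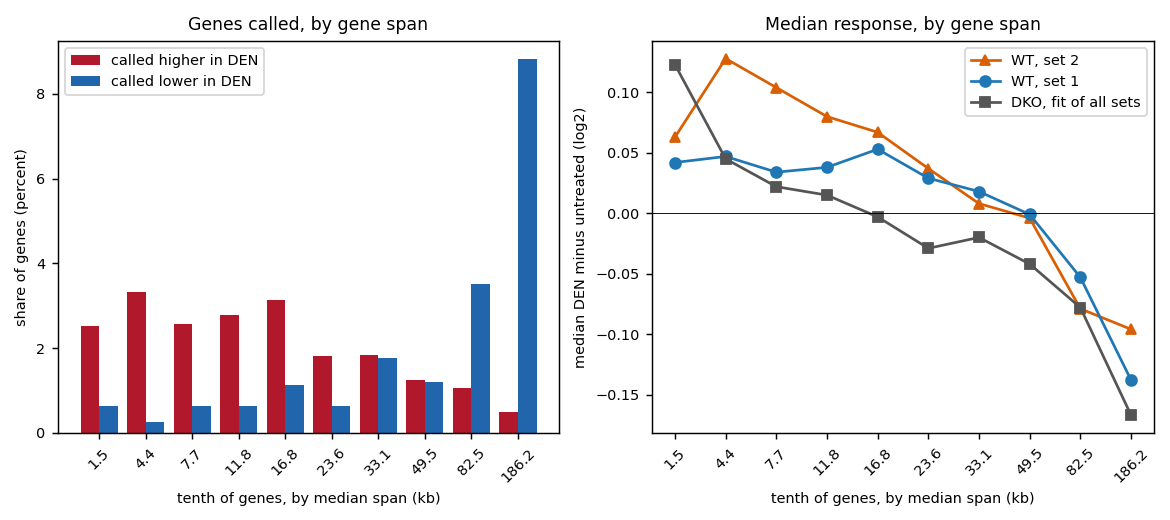
Left, share of genes (percent) called higher (red) and lower (blue) with DEN in each of 10 equal bins of genes by span on the genome, labelled with the median span (kb). Right, median difference, DEN minus untreated (log2), in the same bins, within set 2 and set 1 of WT and in DKO. The share called lower reaches 8.81% in the longest bin, where all 3 lines are below 0.

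Some long genes that fell are named next, chosen by size of fall or p. Prkch (193 kb), Atxn1 (415 kb) and Slc25a21 (485 kb), at -1.40, -1.30 and -1.30, are long as well. The calls of Prkch and Atxn1 were each lost without any of 4 single arrays. Diaph2, a formin that builds actin filaments (716 kb), was at 5.41, 5.64, 5.91, 6.31 and 5.98 with DEN, against 7.40, 7.45 and 7.55 untreated, and fell by 1.66 (SE 0.18, adjusted p = 4.75e-06). Naaladl2 (1346 kb) was at 3.64, 4.06, 5.42, 6.48 and 4.72 with DEN, against 7.32, 6.82 and 6.82 untreated, and fell by 2.17 (SE 0.44, adjusted p = 0.00398). In both genes the untreated arrays stood within 1 unit of each other and above all DEN arrays, and the call of Naaladl2 alone was lost without 1 array, untreated array 1 (0.0576). Exoc6b, of the exocyst that tethers secretory vesicles, was at 4.70, 5.19, 5.00, 5.35 and 5.38 with DEN, against 5.95, 5.81 and 6.31 untreated, and fell by 0.94 (SE 0.14, adjusted p = 0.000215). Tox, an HMG-box factor of lymphocyte development, fell by 0.93 (SE 0.14), and Sugct, an enzyme of lysine breakdown, by 1.36 (SE 0.25). The 12 longest genes called lower, a selection made after their values were seen, span 716 to 2271 kb. Ptprd, a receptor tyrosine phosphatase, was the longest at 2271 kb and fell by 0.91 (SE 0.21), and Dpyd, which starts the breakdown of uracil and thymine, fell by 1.14 (SE 0.19) at 871 kb. All 12, chosen as called lower in the fit of all sets, were negative within set 2 (-1.40 to -0.27) and within set 1 (-2.70 to -0.55). Not every large fall was that of a long gene. Atp6v0d2, a subunit of the vacuolar proton pump, was at 4.98, 5.25, 5.88, 5.62 and 5.24 with DEN, against 7.51, 7.47 and 7.52 untreated, and fell by 2.12 (SE 0.26, adjusted p = 1.68e-05) with a span of 45.7 kb. Ctse, the protease cathepsin E, fell by 1.53 (SE 0.29, adjusted p = 0.00231) with a span of 37.2 kb.

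Among 142 probe sets of miRNA precursors 2 were called higher and 5 lower (4.9%, where 3.99% of all genes were), at a median of 0.02. Of the 5 lower ones 4 are described, chosen after their values were seen, and they lie within other genes whose spans are 79.5 to 599.2 kb. Mir15a was at 4.31, 5.87, 4.50, 5.05 and 5.06 with DEN, against 5.94, 6.07 and 6.49 untreated, and fell by 1.24 (SE 0.25, adjusted p = 0.00369). It lies in Dleu2 (79.5 kb). Mir28a was at 3.12, 3.46, 3.07, 3.17 and 3.10 with DEN, against 3.73, 4.01 and 4.22 untreated, fell by 0.82 (SE 0.16, adjusted p = 0.00316), and lies in Lpp (599.2 kb). On every DEN array but DEN array 2 it lay under 3.33, the mean level below which genes were left out as dim. The probe set of Lpp itself was at 7.19, 7.21, 7.61, 6.00 and 6.04 with DEN, against 8.05, 7.80 and 8.51 untreated, a difference of -1.31 (SE 0.38, adjusted p = 0.0512) without overlap. Mir128-1, in R3hdm1 (134.5 kb), fell by 0.95 (SE 0.25), and Mir181b-2, in Nr6a1 (203.1 kb), by 1.22 (SE 0.26). The probe sets of R3hdm1 and Nr6a1 were at -0.37 and -0.27 and not called (adjusted p = 0.140 and 0.368). The values of Mir181b-2 overlapped between the groups. The array does not tell the mature miRNA from its precursor or host transcript. The mature sequences of these 4 precursors are printed because the seed is the part that pairs with targets. One arm of each is given, from RefSeq build GRCm38.p6, with the seed (bases 2 to 8) in capitals.
miR-15a-5p, chr14:61632075-61632096, minus strand: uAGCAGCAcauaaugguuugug
miR-28a-5p, chr16:24827868-24827889, plus strand: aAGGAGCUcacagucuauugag
miR-128-3p, chr1:128202404-128202424, plus strand: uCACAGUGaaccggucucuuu
miR-181b-5p, chr2:38853845-38853868, plus strand: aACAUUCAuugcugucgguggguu
The 4 seeds differ from each other, so no 2 of them share a seed family.

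Fetal and ciliary genes had few calls in number, but a larger share than the 3.99% of all genes. Of 14 fetal and oncofetal liver genes 2 were called higher and 0 lower (14.3%). Spink1, a trypsin inhibitor, was at 7.00, 6.93, 6.70, 6.53 and 6.58 with DEN, against 5.45, 5.58 and 4.99 untreated, and rose by 1.44 (SE 0.17, adjusted p = 1.25e-05), at 1.56 within set 2 and 1.36 within set 1. Afp, alpha-fetoprotein, was at 6.92, 8.46, 6.87, 9.26 and 6.86 with DEN, against 4.78, 4.78 and 7.80 untreated, and was called at 1.78 (SE 0.50, adjusted p = 0.0399). Untreated array 3 lay within its DEN range, and the call ended without untreated array 1 or 2 or DEN array 1, 2 or 4 (up to 0.222). Of 21 genes of the primary cilium 1 was called higher and 2 lower (14.3%). Cplane1 rose, while Dync2h1, a motor of transport in the cilium, at -0.55 (SE 0.12), and Bbs9, of the BBSome, at -0.54 (SE 0.14), fell. The call of Dync2h1 ended without untreated array 1 (0.0561) and that of Bbs9 without untreated array 1 or 2 or DEN array 2 or 5 (up to 0.121).

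Markers of other liver cells had calls for 0% to 20.0% of a list, where 3.99% of all genes were called. The highest share was that of 10 cholangiocyte and progenitor markers, with 1 called higher and 1 lower. For sinusoidal endothelial markers the share was 16.7%. The part of these cells in the results above was not tested. Of 18 sinusoidal endothelial markers 3 were called lower and 0 higher, at a median of -0.13, or 0.07 within set 2 and -0.26 within set 1, with 1 called lower without untreated arrays 1 and 3, and the mean of the list was 5.88 to 6.16 on the DEN arrays and 5.98 to 6.35 on the untreated arrays. Stab2, a scavenger receptor of these cells, was at 6.69, 7.18, 6.61, 6.72 and 7.03 with DEN, against 8.05, 7.97 and 7.23 untreated, and fell by 0.90 (SE 0.17, adjusted p = 0.00217). Reln, made by stellate cells, was at 6.13, 6.60, 6.80, 6.35 and 6.38 with DEN, against 7.81, 7.77 and 7.45 untreated, and fell by 1.23 (SE 0.24, adjusted p = 0.00276). It was 1 of 2 called lower among 20 stellate cell and matrix markers, the other being Fn1 at -0.58 (SE 0.15), which was not called without untreated array 1 or 2 or DEN array 4 (up to 0.180). Of 17 Kupffer cell and macrophage markers 0 were called, at a median of -0.11, with list means of 5.76 to 6.40 on the DEN arrays and 5.95 to 6.11 on the untreated arrays. Marco, a scavenger receptor of Kupffer cells, was at 0.75 (SE 0.24, adjusted p = 0.0736). Of 13 neutrophil and myeloid precursor markers only Ltf, the granule protein lactoferrin, was called, at 1.15 (SE 0.29, adjusted p = 0.0214), and S100a8 and S100a9 were not called. Their list mean was 4.86, 5.32, 4.94, 4.79 and 4.21 with DEN, against 4.42, 4.51 and 4.69 untreated. The call of Ltf ended without untreated array 1 or 2 or DEN array 1, 2 or 4 (up to 0.155). Of 11 lymphocyte markers Gzma was called lower at -0.79 (SE 0.23, adjusted p = 0.0485), with 6.16 and 5.62 on the untreated arrays of set 1 and 4.21 to 5.07 on all others, and 5 single arrays ended the call (up to 0.362). Of 8 erythroid markers 0 were called.

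The agreement between the sets was low over all genes. In set 1 alone 797 genes were called higher (5.0%) and 950 lower (5.96%). Of the 797, 447 were above 0 within set 2 (56.1%), and of the 950, 479 were below 0 (50.4%), where 54.0% of all genes were above 0 within set 2. Their median was 0.07 within set 2 and 0.62 within set 1 for the 797, and -0.004 within set 2 and -0.62 within set 1 for the 950. Across genes, which are not independent replicates, Pearson's r between the differences of the sets was 0.12 and Spearman's rho 0.04. Every value of set 2 rests on 1 untreated array, which has the female pattern, against DEN arrays with the male pattern. Within set 2 DEN and sex therefore cannot be told apart. In set 1 the untreated arrays hold both patterns, so a difference between the sets cannot be told apart from sex either. Genes named above with close values in both sets include Ephx1 (2.43 within set 2 and 2.26 within set 1), Nqo1, Glul and Atp6v0d2 (-2.09 within set 2 and -2.12 within set 1).

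**Figure D5:**
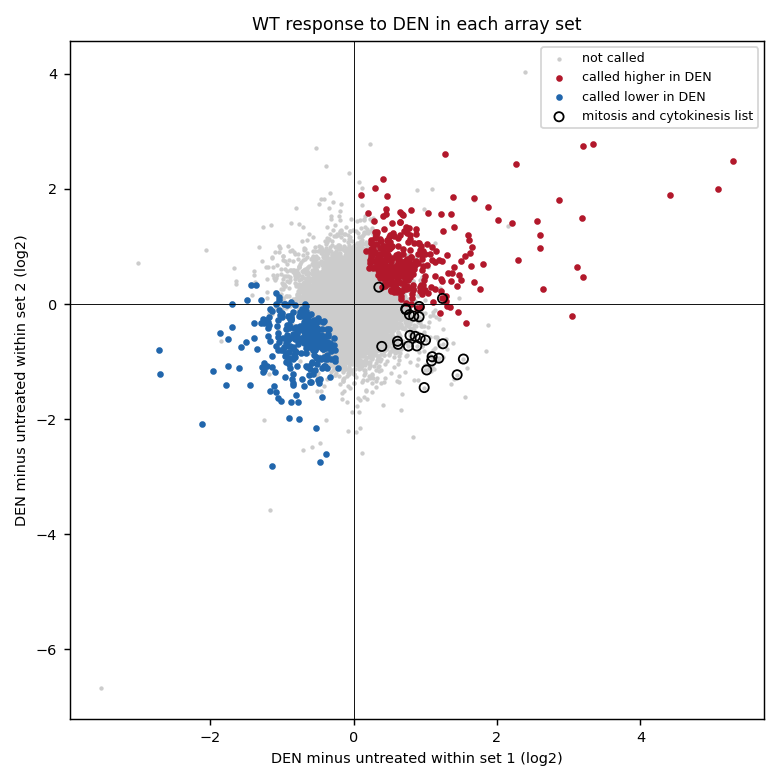
Difference, DEN minus untreated (log2), of each tested gene within set 1 (horizontal) and within set 2 (vertical), with genes called higher in red, called lower in blue and the mitosis list ringed. Of 636 called genes, chosen by a fit of these same arrays, 618 lie in the quadrants of equal sign. The ringed genes lie mostly to the lower right, and across all genes r is 0.12.

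What in this response differs from that of livers without Rb and p53 was asked by the difference between the DEN responses, WT minus DKO, which called 1580 genes (9.91%), 1363 above 0 (8.54%) and 217 below (1.36%). After centring of each array on its median there were 812 above 0 and 471 below. Of the 636 genes called in WT, 207 were also called in this difference, 200 of them with the sign of the WT response. Both comparisons use the same WT arrays, of which untreated arrays 1 and 3 have the female pattern. Part of the difference between WT and DKO therefore cannot be told apart from sex. Without untreated WT array 3 the count fell from 1580 to 806. The sex pattern of the DKO arrays is not given here. Ephx1 averaged 9.59 in DEN WT and 7.31 in untreated WT, and 7.79 in DEN DKO and 7.51 in untreated DKO, a difference between the responses of 1.96 (SE 0.23, adjusted p = 6.35e-05). Gstp1 averaged 10.85 in DEN WT and 9.18 in untreated WT, and 9.77 in DEN DKO and 10.42 in untreated DKO, a difference of 2.30 (SE 0.28, adjusted p = 6.35e-05). For both genes the rise was that of WT. The untreated DKO arrays are all of set 1, where Gstp1 was at 9.71 and 10.05 on the untreated WT arrays. It was at 10.89 to 11.40 on the DEN WT arrays of that set, so the untreated DKO average lay between the 2 WT groups. Of the Nrf2 list 8 of 20 were called above 0 and 0 below, and of the glutathione transferases 4 of 17 and 0. Of the p53 targets of arrest 2 of 18 were called above 0 and 0 below, at a median of 0.43, where all genes had 0.03. Of those of cell death 3 of 13 were called above 0 and 0 below, at a median of 0.39. The responses differed by 1.69 for Plk2 (SE 0.42, adjusted p = 0.0117) and by 1.14 for Siva1 (SE 0.26, adjusted p = 0.00691). For Fas the difference was 1.19 (SE 0.27, adjusted p = 0.00566). Ccng1 averaged 9.93 in DEN WT and 7.41 in untreated WT, and 9.12 in DEN DKO and 7.05 in untreated DKO, and its responses differed by 0.45 (SE 0.31, adjusted p = 0.400). Hamp differed by 4.93 (SE 0.99, adjusted p = 0.00256), with averages of 8.90 in DEN WT and 4.82 in untreated WT against 10.14 in DEN DKO and 10.62 in untreated DKO, already high without DEN. For Mir15a and for Pln, the phospholamban gene, DEN averages lay below untreated ones in WT and above them in DKO, and the responses differed by -2.24 (SE 0.36) and -2.14 (SE 0.41). Mir15a averaged 4.96 in DEN WT and 6.16 in untreated WT, and 6.29 in DEN DKO and 4.92 in untreated DKO. DKO arrays lie partly in array set 3, and all untreated DKO arrays in set 1.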

How the data were processed

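Per the labels' protocols, frozen liver gave RNA that the WT-Ovation Pico kit amplified for 1-colour arrays. The deposited values are log2 signals that the authors made by RMA in Affymetrix Expression Console 1.1, per the submitters' processing notes. Whether all arrays were normalised in 1 run, and the genome build, are not given in the sources used here. Of 35555 probe sets 21789 carry 1 symbol, 1620 several and 12146 are not listed in the platform table. The probe set with the highest mean stood for each of 19938 genes, and 3987 genes under the 20th percentile of the mean (3.33 log2) were left out, which left 15951. No 2 arrays held identical values. Groups were compared with limma 3.58.1 in R 4.3.3 over all 25 arrays, with the array set as a covariate and Benjamini-Hochberg adjusted p under 0.05 as the threshold, and statmod 1.5.0 served the random block. Set differences and the WT minus DKO difference were contrasts of the same kind. On simulated data with the WT design, 22%, 95% and 99.5% of 200 genes shifted by 0.5, 1 and 2 were recovered, with 1, 7 and 14 false calls. The simulated noise was independent between arrays, and the shift was equal in both sets with no effect of sex. Recovery on the real arrays may therefore be lower. Of 774 entries in 43 gene lists, 702 matched a gene. Genes are named by p, by size of change, by the differences between sets and genotypes, and by list. The members and lists were chosen with earlier results of these data known. No depth exists for arrays, whose number limits the precision. The result for 1 miRNA precursor is not reported here.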

Additional observations from a re-analysis of the deposited data

Results flagged for a closer look

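The response to DEN differed between the array sets, as set 2 minus set 1 in the fit of all sets, for 13 of the genes named by rule. It was lower in set 2 for Orm1 (-3.25), Saa2 (-2.80), Orm2 (-2.73), Prrg4 (-2.47), Atxn1 (-2.28), Ddias (-1.69), Ckap2 (-1.64) and Ccng1 (-1.05). It was higher in set 2 for Slc1a2 (1.92), Ftcd (1.79), Afmid (1.77), Gstm6 (1.76) and Gstp1 (1.33). The adjusted p of these differences lay between 0.00014 (Afmid) and 0.0464 (Saa2). All rest on the 1 untreated WT array of set 2, which has the female pattern, and cannot be told apart from sex.

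The response of WT minus that of DKO was above 0 for Hamp (4.93), Afp (2.70), Ltf (2.37), Gstp1 (2.30), Ephx1 (1.96), Cox6b2 (1.49), 1700007K13Rik (1.39), Ftcd (1.29), Aaas (1.18) and Ces2e (1.16). It was below 0 for Mir15a (-2.24), Pln (-2.14), Prkch (-1.81), Slc1a2 (-1.66), Diaph2 (-0.96) and Zfp292 (-0.64). The adjusted p of these differences lay between 6.35e-05 (Ephx1 and Gstp1) and 0.0363 (1700007K13Rik). They hold the untreated WT arrays with the female pattern, so part of each cannot be told apart from sex.

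Probe sets without a single gene symbol were not used for the comparisons. In a fit of all probe sets 101 of the 12146 unlisted ones were called (0.832%), 40 higher and 61 lower. Of the 1620 with several symbols 37 were called (2.28%), 29 higher and 8 lower. In the same fit 2.03% of the probe sets with 1 symbol were called.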

How the results depend on the processing

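The count of genes called in WT, 636 with all arrays and the set term, was 142 without the set term, 430 with the set as a random block, 1747 in set 1 alone, 1086 without set 2, 203 with the 8 WT arrays only and 2388 with array weights. The cause was not tested. Leaving out 1 array gave 221 (untreated array 1) to 850 (untreated array 3). With Xist as a covariate there were 489, among them 198 of the 331 main calls that were higher and 215 of the 305 that were lower. Without untreated arrays 1 and 3, an alternative chosen after seeing the data, there were 208. The count for set 2 minus set 1, 1280, was 748 to 1398 with 1 array left out. The count for WT minus DKO, 1580, was 664 without the set term and 1173 in set 1 alone. With 1 array left out it was 806 (untreated WT array 3) to 1684 (DEN WT array 3). In set 2 alone Orm1 was at -0.21 and Afmid at 0.34, the opposite of their direction in the fit of all sets. No paired analysis was possible because the DEN and untreated WT titles share only 1 number, 8, and on titles of different array sets. Centring each array on its median moved the median of all genes by -0.0228. Set 2 holds 1 untreated WT array, so its values have no spread of their own.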
